A study of Rattus norvegicus with 30 samples.

Results

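Levels of 9 complement genes were followed in the hearts of F344 rats of 3 ages and both sexes: C1qa, C1qb, C1qc, C1s, C2, C3, Cfb, C6 and C7. The members were every entry of these names in the study's 3 normalized tables, which came to 12 entries in the table of each age, C7 being listed there under its probe identifier A_44_P428673. Traced to the array scans, the entries were 15 of the 41012 probes of the array, and each gene was described by 1 lead probe, the one well above background on most of the 30 arrays. All groups were untreated rats of the inbred F344 strain from one breeding colony on one diet, and they differed in sex and in age only: 5 females and 5 males at 8 weeks, 5 and 5 at 21 weeks, and 5 and 5 at 78 weeks. Whole hearts were used with 1 array per rat, so muscle, vessels, connective tissue, blood and any attached fat or membrane entered each RNA sample. The study processed rats of different ages in different batches and tested sexes within an age only, so age and batch cannot be told apart in any difference between ages given below.

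Complement is a cascade of plasma proteins that marks microbes, immune complexes and dying cells for removal. In the classical pathway the C1q molecule, built from the chains of C1qa, C1qb and C1qc, recognizes the target. The protease C1s of that pathway then cleaves C4 and C2, and the resulting enzyme cleaves C3. In the alternative pathway factor B (Cfb) supplies the protease that cleaves further C3, and C6 and C7 belong to the terminal components that assemble a pore in the membrane. Most circulating complement is made by the liver, while C1q is made mainly by macrophages and related myeloid cells, and tissue cells can make C1s, C3 and Cfb locally.

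The levels below were read by 60-base probes, and those of the 5 genes that differed between 78 and 8 weeks are shown because each level of their lead probes is the signal of this one stretch. The sequences are 5′ to 3′ as the scanner files gave them, with no base in capitals. The files listed the C1qa probe at chr5:155672617-155672676, the C1s probe at chr4:160981661-160981720, the C2 probe at chr20:4071731-4071790 and the Cfb probe at chr20:4077203-4077346 of build rn3, and the C3 probe on an unplaced scaffold. The Cfb listing covered 144 bases for a 60-base probe and so spans a gap. No genome or annotation of rn3 was used here, so exons were not assigned.
C1qa: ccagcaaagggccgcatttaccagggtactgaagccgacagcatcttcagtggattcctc
C1s: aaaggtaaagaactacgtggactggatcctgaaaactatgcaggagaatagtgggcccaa
C2: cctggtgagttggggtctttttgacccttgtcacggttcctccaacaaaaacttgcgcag
C3: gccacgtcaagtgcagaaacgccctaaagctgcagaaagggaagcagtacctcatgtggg
Cfb: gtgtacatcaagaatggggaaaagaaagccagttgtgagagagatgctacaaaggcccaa

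The 250 bases before the annotated start of C1qa, C1qb and C3 are shown because C1qa and C1qb passed the test between 8 and 21 weeks and C3 between 21 and 78 weeks. They were taken from RefSeq (build GRCr8), which matched 4 of the 9 members (C1qa, C1qb, C3 and C6), and they lie at chr5:154419934-154420183, chr5:154407828-154408077 and chr9:2201340-2201589, each on the minus strand. Capitals mark matches to 6 motifs searched on both strands, of which a first NF-kB form, the ISRE, the C/EBP form and the TATA box had none in the 3 windows. The C1qa window held TTCNNNGAA (STAT) at -90, a motif found in 7.67% of 33469 promoter windows of the same length. The C1qb and C3 windows held a second and looser NF-kB form, which was found in 16.4% of windows. In C1qb the forms on opposite strands overlapped, starting at -187 and -186, and in C3 the match started at -69. The C6 window, at chr2:55573383-55573632 on the plus strand and not printed, held the C/EBP form, TTGCNNCAA, at -174, as 1.75% of windows did.
C1qa: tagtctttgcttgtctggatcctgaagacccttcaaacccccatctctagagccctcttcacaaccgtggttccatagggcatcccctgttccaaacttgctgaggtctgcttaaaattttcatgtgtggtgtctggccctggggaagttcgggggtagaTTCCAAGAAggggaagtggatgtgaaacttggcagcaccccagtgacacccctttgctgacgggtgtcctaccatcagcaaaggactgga
C1qb: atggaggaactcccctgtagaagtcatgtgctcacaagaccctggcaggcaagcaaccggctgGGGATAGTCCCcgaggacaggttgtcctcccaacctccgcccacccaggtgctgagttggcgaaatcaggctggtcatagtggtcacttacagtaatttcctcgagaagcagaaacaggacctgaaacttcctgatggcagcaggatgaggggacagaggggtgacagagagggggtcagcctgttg
C3: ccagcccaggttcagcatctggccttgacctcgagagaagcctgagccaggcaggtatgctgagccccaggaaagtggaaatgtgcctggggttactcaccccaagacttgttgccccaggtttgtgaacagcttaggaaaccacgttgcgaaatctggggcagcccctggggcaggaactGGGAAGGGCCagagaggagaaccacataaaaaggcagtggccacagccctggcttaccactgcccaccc

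A level is the log2 of a probe's processed signal (the scanner software's background-subtracted spot brightness) over the 75th percentile of its array. A level of 0 is therefore the brightness that 3 in 4 probes of that array stayed under, and levels of different probes were not compared with each other. All 9 lead probes were well above background on 30 of 30 arrays and none was saturated. The arrays filled 8 slides and 2 scan days, the 8-week arrays being scanned on the first day, the 21-week arrays on the second and the 78-week arrays on both, and 1 slide held both 8- and 78-week arrays. Females and males had fixed array positions, so position and sex cannot be told apart. At 78 weeks the array labelled female replicate 2 had male levels of Ddx3y and Eif2s3y, which lie on the Y chromosome (-0.90 and 1.36), and the array labelled male replicate 3 had female levels of both (-5.48 and -5.60). Comparisons between the sexes at 78 weeks are therefore given with and without these 2 arrays, under the groups of the labels. Heart muscle markers were bright on every array, their mean level lying between 8.04 and 9.20, while those of neutrophils and of B and plasma cells were dim.

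Between 8 and 78 weeks, 5 of the 9 complement genes rose and none fell. C2 rose the most, by 0.89 ± 0.16 on the log2 scale (SE, 10 against 10 arrays, 1.85-fold), followed by C3 (0.76 ± 0.21), C1qa (0.45 ± 0.10), C1s (0.44 ± 0.09) and Cfb (0.42 ± 0.12). The adjusted p-values of limma's moderated test, taken over all probes, were 0.000245 for C2, 0.016 for C3, 0.00403 for C1qa, 0.00147 for C1s and 0.0258 for Cfb. C1qb, C1qc, C6 and C7 were measured 0.21, 0.23, 0.52 and 0.24 higher at 78 weeks and did not pass the test (adjusted p = 0.0676 to 0.165). Of all probes tested in this comparison 10.8% passed in either direction and 5.94% were higher at 78 weeks, against 5 of 9 members. Of the probes well above background on every array, as the 9 lead probes were, 20.1% passed in either direction. The median difference was 0.44 over the members, 0.13 over all probes and -0.01 over the 14867 probes well above background on every array. In whole-heart RNA, more cells of a type and more RNA per cell cannot be told apart. With another background correction (normexp), none of the 9 passed, C1qa, C1qb, C1qc and C1s turned to -0.10, -0.34, -0.06 and -0.06, and only 337 of all probes passed. That correction moved the median of all probes to 0.39 and that of the probes above background on all arrays to -0.16. On the slide that held both ages, with 2 arrays of each, 8 of the 9 genes were again higher at 78 weeks, by 0.20 (C7) to 1.09 (C2), and C1qb differed by -0.0026, with no test.

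**Figure D1:**
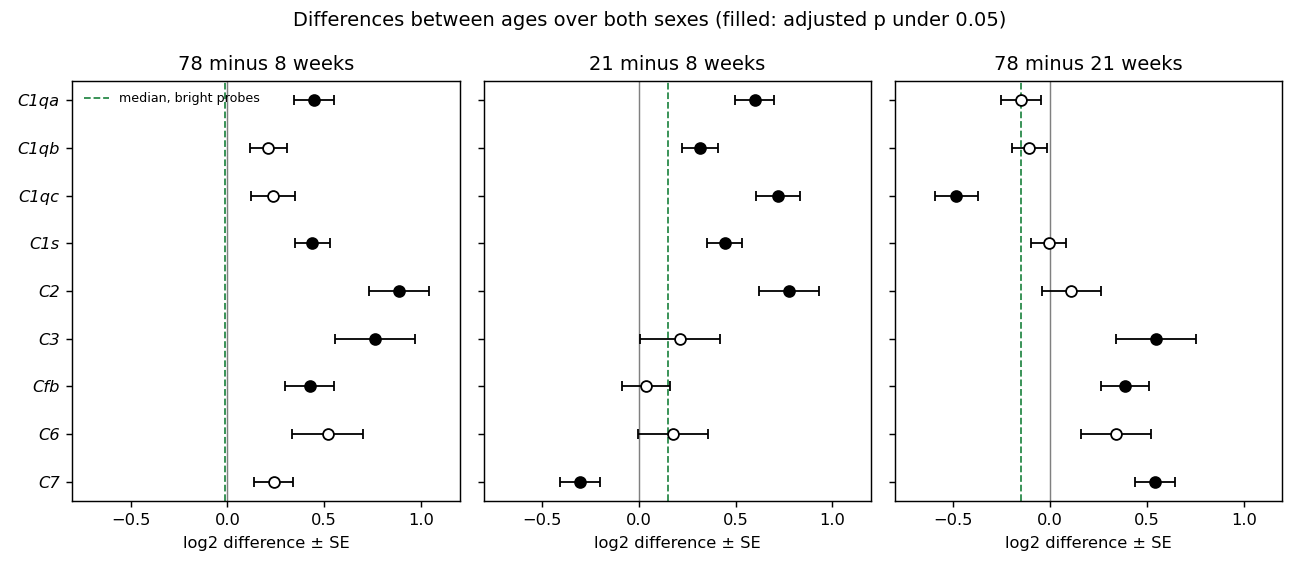
Log2 differences between ages for the lead probes of the 9 complement genes (x axis) with standard errors, in 3 panels for 78 minus 8, 21 minus 8 and 78 minus 21 weeks over 10 against 10 arrays, filled points marking an adjusted p below 0.05 and the dashed line the median of the 14867 probes above background on all arrays. C1qa, C1qb, C1qc, C1s and C2 are filled to the right of 0 at 21 against 8 weeks, C3, Cfb and C7 are filled to the right at 78 against 21 weeks, and C7 is filled to the left at 21 against 8 weeks.

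The recognition genes came first in the order of the cascade. C1qa, the A chain of C1q, had levels at 8 weeks of 3.98, 3.90, 3.81, 3.82 and 3.95 in females and 3.78, 3.76, 4.04, 3.95 and 4.00 in males (replicates 1 to 5 throughout). The 21-week levels were 4.10, 4.48, 4.12, 4.36 and 4.68 in females and 4.45, 4.91, 4.54, 4.38 and 5.03 in males. The 78-week levels were 4.24, 4.43, 4.10, 3.58 and 4.38 in females and 4.66, 4.53, 4.18, 4.62 and 4.77 in males. All 10 arrays of 21 weeks and 9 of 10 of 78 weeks lay above the highest array of 8 weeks, and the exception, female replicate 4 at 78 weeks, lay below the lowest. C1qa was 0.60 ± 0.10 higher at 21 than at 8 weeks (adjusted p = 4.13e-05), and 78 and 21 weeks differed by -0.15 ± 0.10 without passing the test (adjusted p = 0.248).

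C1qb, the B chain, passed the test between 8 and 21 weeks only. Its group means were 5.07 ± 0.12 and 5.08 ± 0.16 (SD, n = 5 females and 4 males) at 8 weeks, 5.23 ± 0.26 and 5.57 ± 0.30 at 21 weeks, and 5.13 ± 0.14 and 5.44 ± 0.16 at 78 weeks (n = 5 each). Male replicate 4 at 8 weeks had no value because the scanner marked that spot as non-uniform, and the fit left it out. Against the highest array of 8 weeks, 6 of 10 arrays lay above it at 21 weeks and 6 of 10 at 78 weeks. The rise from 8 to 21 weeks of 0.32 ± 0.09 passed the test (adjusted p = 0.00618), while it came to 0.07 with quantile normalization (adjusted p = 0.517) and to -0.20 with normexp.

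C1qc, the C chain, rose and fell back. Its levels at 8 weeks were 2.04, 1.57, 1.51, 1.86 and 1.90 in females and 1.52, 1.85, 2.13, 2.12 and 1.63 in males. At 21 weeks they were 2.28, 2.65, 2.15, 2.33 and 2.02 in females and 2.84, 3.06, 2.56, 2.36 and 3.07 in males. At 78 weeks they were 1.68, 1.70, 1.84, 2.12 and 1.85 in females and 2.32, 2.00, 2.00, 2.72 and 2.24 in males. In all, 9 of 10 arrays of 21 weeks lay above every array of 8 weeks, and 6 of 10 arrays of 78 weeks lay below every array of 21 weeks. The difference was 0.72 ± 0.11 from 8 to 21 weeks (adjusted p = 1.48e-05) and -0.48 ± 0.11 from 21 to 78 weeks (adjusted p = 0.00119). A second C1qc probe, A_44_P412290, gave 0.67 and -0.47 for the same steps and passed in both. Within the single scan day that held arrays of 21 and of 78 weeks, the lead probe's second step was -0.30 (adjusted p = 0.345).

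**Figure D2:**
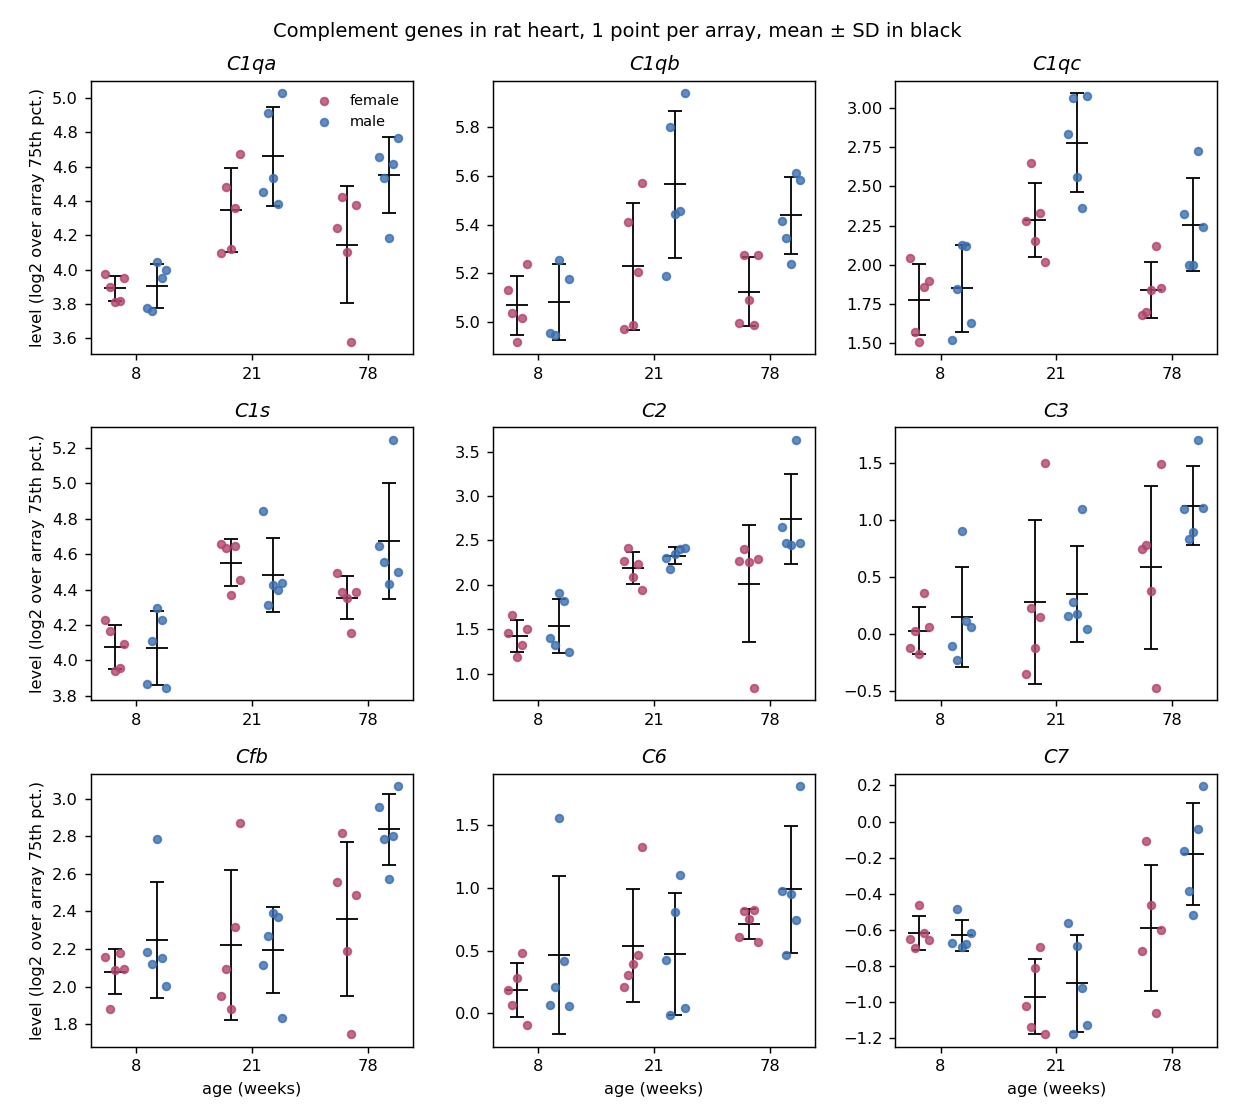
Level of each complement gene's lead probe (y axis, log2 of processed signal over the array's 75th percentile) on every array, by age (x axis), with females and males as separate points and bars for the group mean and SD of 5 arrays (4 males at 8 weeks for C1qb). C1qa, C1s and C2 separate the 21-week from the 8-week arrays without overlap, and female replicate 4 at 78 weeks is the low point of C1qa, C2, C3 and Cfb. Between 8 and 21 weeks 56.8% of all probes passed the test, and how many of them separate without overlap was not counted.

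C1s, a protease of the classical pathway, passed the test at both later ages against 8 weeks. Its levels at 8 weeks were 4.23, 4.17, 3.94, 3.96 and 4.09 in females and 3.86, 4.11, 4.30, 4.23 and 3.84 in males. The 21-week levels were 4.66, 4.63, 4.37, 4.65 and 4.45 in females and 4.85, 4.31, 4.43, 4.39 and 4.44 in males. The 78-week levels were 4.49, 4.39, 4.35, 4.15 and 4.39 in females and 4.65, 4.55, 4.43, 5.25 and 4.50 in males. All 10 arrays of 21 weeks and 9 of 10 of 78 weeks lay above every array of 8 weeks. The 21-week arrays were 0.44 ± 0.09 above the 8-week arrays (adjusted p = 0.000276), and 78 and 21 weeks differed by -0.01 ± 0.09 (adjusted p = 0.957). A second C1s probe, A_44_P332429, rose by 0.28 ± 0.09 between 8 and 78 weeks (adjusted p = 0.0441), a call that was lost in 15 of 20 fits that each left out 1 array.

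C2, which together with C4 forms the enzyme that cleaves C3, had the largest rise of the 9 between 8 and 78 weeks. Its levels at 8 weeks were 1.46, 1.66, 1.18, 1.32 and 1.50 in females and 1.40, 1.33, 1.91, 1.82 and 1.24 in males. At 21 weeks they were 2.27, 2.41, 2.09, 2.24 and 1.94 in females and 2.30, 2.18, 2.35, 2.40 and 2.41 in males. At 78 weeks they were 2.27, 2.41, 2.25, 0.84 and 2.29 in females and 2.65, 2.48, 2.45, 3.63 and 2.48 in males. No array of 21 weeks overlapped those of 8 weeks, and at 78 weeks female replicate 4 was below and the other 9 arrays were above the whole 8-week range. The step from 8 to 21 weeks was 0.78 ± 0.15 (adjusted p = 0.00024) and the one from 21 to 78 weeks 0.11 ± 0.15 (adjusted p = 0.584). The second step was 0.0012 without male replicate 4 at 78 weeks and 0.26 without female replicate 4. Without female replicate 4 the difference between 78 and 8 weeks was 1.03, and without male replicate 4, the highest array, it was 0.78 (adjusted p = 8.9e-07 and 0.000459).

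C3, the component on which all pathways converge, passed the test at 78 weeks against both younger ages. Its levels at 8 weeks were -0.12, 0.02, -0.18, 0.36 and 0.06 in females and -0.10, -0.23, 0.90, 0.11 and 0.06 in males. The 21-week levels were -0.36, 0.22, -0.13, 0.15 and 1.50 in females and 0.16, 0.28, 0.18, 1.09 and 0.05 in males. The 78-week levels were 0.75, 0.78, 0.38, -0.47 and 1.49 in females and 1.09, 0.83, 0.89, 1.70 and 1.11 in males. The groups overlapped at every age, with 4 of 10 arrays of 78 weeks above the highest of 8 weeks and 1 below the lowest. C3 was 0.21 ± 0.21 higher at 21 than at 8 weeks (adjusted p = 0.377) and 0.55 ± 0.21 higher at 78 than at 21 weeks (adjusted p = 0.043). The first of these differences was 0.07 without female replicate 5 at 21 weeks. The second call was lost in 14 of 20 fits that each left out 1 array and with scan day as a block (0.65, adjusted p = 0.094), and it held without male replicate 4 at 21 weeks (0.64, adjusted p = 0.0178). The rise from 8 to 78 weeks was 0.69 with scan day as a block (adjusted p = 0.0741) and 0.70 within one scan day (adjusted p = 0.00473).

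Cfb, the protease of the alternative pathway, passed the test in the same comparisons as C3. Its levels at 8 weeks were 2.16, 1.88, 2.09, 2.18 and 2.09 in females and 2.18, 2.12, 2.79, 2.15 and 2.01 in males. At 21 weeks they were 1.95, 2.09, 1.88, 2.31 and 2.87 in females and 2.11, 2.27, 2.39, 2.37 and 1.83 in males. At 78 weeks they were 2.56, 2.82, 2.19, 1.75 and 2.49 in females and 2.95, 2.79, 2.57, 2.80 and 3.07 in males. In all, 9 of 10 arrays of 78 weeks lay above the mean of 8 weeks, but only 4 lay above its highest array, male replicate 3. Cfb was 0.04 ± 0.12 higher at 21 than at 8 weeks (adjusted p = 0.81) and 0.39 ± 0.12 higher at 78 than at 21 weeks (adjusted p = 0.0159). The call between 8 and 78 weeks was lost when female or male replicate 2 at 8 weeks, female replicate 2 at 78 weeks or male replicate 5 at 78 weeks was left out, the values over all such fits lying between 0.37 and 0.50. Without the 2 arrays whose Y-linked genes contradict the label it was 0.40 (adjusted p = 0.0523).

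Of the terminal components, C6 passed no comparison of ages and C7 passed at 21 weeks against both other ages. C6 had levels at 8 weeks of 0.18, 0.07, 0.28, 0.48 and -0.09 in females and 0.07, 0.21, 1.56, 0.42 and 0.06 in males, at 21 weeks of 0.21, 0.31, 0.39, 0.47 and 1.33 in females and 0.42, -0.02, 0.81, 1.11 and 0.04 in males, and at 78 weeks of 0.61, 0.82, 0.75, 0.82 and 0.57 in females and 0.97, 0.46, 0.95, 0.74 and 1.81 in males. All 10 arrays of 78 weeks lay above the mean of 8 weeks, yet only 1 lay above its highest array. With male replicate 3 at 8 weeks and female replicate 5 at 21 weeks left out, an alternative chosen after their values were seen, C6 was 0.66 higher at 78 than at 8 weeks (adjusted p = 0.00307).

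C7 was lowest in adults of 21 weeks. Its levels at 8 weeks were -0.65, -0.70, -0.46, -0.62 and -0.66 in females and -0.67, -0.49, -0.69, -0.68 and -0.62 in males. The 21-week levels were -1.02, -1.14, -0.81, -0.70 and -1.17 in females and -0.56, -1.18, -0.69, -0.92 and -1.12 in males. The 78-week levels were -0.72, -0.11, -0.46, -1.06 and -0.60 in females and -0.16, -0.39, -0.52, -0.04 and 0.20 in males. In all, 7 of 10 arrays of 21 weeks lay below every array of 8 weeks, and 7 of 10 arrays of 78 weeks lay above every array of 21 weeks. C7 fell by 0.30 ± 0.10 from 8 to 21 weeks (adjusted p = 0.0133) and rose by 0.54 ± 0.10 from 21 to 78 weeks (adjusted p = 0.000118). The fall was not seen with normexp (0.02), and the rise was 0.56 within one scan day (adjusted p = 0.111) and 0.55 with scan day as a block (adjusted p = 0.00419).

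Between 8 and 21 weeks, then, 6 of the 9 members passed the test, C1qa, C1qb, C1qc, C1s and C2 higher and C7 lower. In that comparison 56.8% of all probes passed in either direction and 41.5% were higher at 21 weeks. How many of all probes separated the arrays of these or other ages without overlap was not counted. Of the probes above background on all arrays, as the 9 lead probes were, 63.7% passed in either direction. The median difference was 0.32 over the members, 0.28 over all probes and 0.15 over the probes above background on all arrays. Between 21 and 78 weeks 4 members passed, C3, Cfb and C7 higher and C1qc lower, where 32.2% of all probes passed and 14% were higher at 78 weeks. Of the probes above background on all arrays 57.8% passed between these ages, so 4 of 9 was no larger a share. The median difference there was 0.11 over the members, -0.17 over all probes and -0.15 over the probes above background on all arrays. No member passed either comparison with normexp, and within the single scan day none passed between 21 and 78 weeks.

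In the sexes apart, 78 against 8 weeks gave larger values in males for 8 of the 9 genes. In males C1qa rose by 0.64 ± 0.15, C1s by 0.60 ± 0.13 and C2 by 1.19 ± 0.23 (adjusted p = 0.011, 0.00641 and 0.00171, 5 against 5 arrays), so 3 of 9 passed where 3.95% of all probes did. The other 6 genes were 0.36 to 0.97 higher in males at 78 weeks and did not pass. In females none of the 9 passed where 2.47% of all probes did, with differences of 0.03 (C7) to 0.58 (C2) and 2 genes at an unadjusted p below 0.05. Of the probes above background on all arrays 7.74% passed in males and 4.94% in females. The difference between the sexes in this change was itself tested and no member passed, C2 differing by -0.61 ± 0.33 (female change minus male change, unadjusted p = 0.0784) and C7 by -0.42 ± 0.22 (unadjusted p = 0.0663). Of all probes 0% passed this test in limma (951 at an unadjusted p below 0.05). These fits include the 2 arrays whose Y-linked genes contradict the label. Without them 4 members passed in males, C7 being added (0.53 ± 0.14, adjusted p = 0.0351), none passed in females (differences of -0.09 for C7 to 0.51 for C3, none at an unadjusted p below 0.05), and none passed the test of the difference between the sexes. That difference was then -0.78 ± 0.35 for C2 and -0.62 ± 0.21 for C7 (unadjusted p = 0.036 and 0.00594 in limma), and 3 members had an unadjusted p below 0.05. The same test between 21 and 8 weeks and between 78 and 21 weeks passed 0.00244% of all probes each and none of the 9 members (lowest adjusted p = 0.356).

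**Figure D3:**
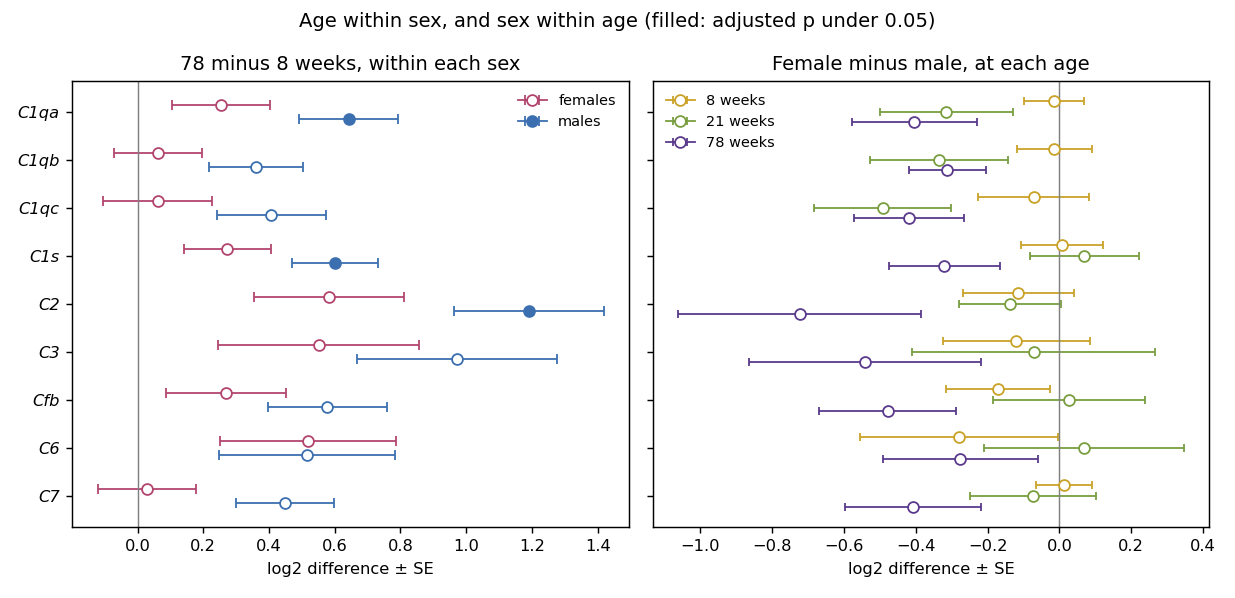
Log2 differences of each complement gene's lead probe (x axis) with standard errors from 5 against 5 arrays, on the left 78 minus 8 weeks within females and within males, on the right female minus male at 8, 21 and 78 weeks, filled points marking an adjusted p below 0.05. The male points of C1qa, C1s and C2 are the filled ones, and on the right all 9 points of 78 weeks lie below 0, between -0.72 and -0.28.

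At 78 weeks all 9 complement genes were measured lower in females than in males, by 0.28 (C6) to 0.72 (C2) with a median of -0.41, and none passed the test. In simulated data this test passed 0 of 100 probes that differed by 0.5 and 27 of 100 that differed by 1. A gene that did not pass is therefore not shown to be equal in the sexes. The adjusted p was 0.931 for each of the 9, 4 of them (C1qa, C1qb, C1qc and Cfb) had an unadjusted p below 0.05, and 0% of all probes passed in limma (1885 at an unadjusted p below 0.05). The median difference over all probes was 0.01. The lowest unadjusted p was 0.0148, for C1qb at 5.13 ± 0.14 in females and 5.44 ± 0.16 in males (SD, n = 5 each). Without the 2 arrays whose Y-linked genes contradict the label the differences were -0.89 (C2) to -0.31 (C6), and the lowest adjusted p was 0.517. Without female replicate 4 they were -0.49 (C1qc) to -0.26 (C1qa), and without male replicate 4 they were -0.50 (C2) to -0.18 (C1s). Without male replicate 5 the C6 difference was -0.07. At 8 weeks the differences were small, from -0.28 to 0.01 with a lowest adjusted p of 0.927, where 0.0659% of all probes passed. At 21 weeks they ranged from -0.49 (C1qc, unadjusted p = 0.0252) to 0.07, with a lowest adjusted p of 0.363, where 0.0317% of all probes passed. The median difference at 21 weeks was -0.07 over the members and -0.23 over all probes. No member passed at either age.

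Arrays that stood apart did so for several members at once. Female replicate 4 at 78 weeks was the lowest of its group for C1qa, C1qb, C1s, C2, C3, Cfb and C7, and male replicate 4 was the highest of its group for C1qb, C1qc, C1s, C2 and C3. Male replicate 3 at 8 weeks was the highest of the 8-week arrays for all members but C7. Female replicate 5 at 21 weeks was the highest 21-week array for C3, Cfb and C6.

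**Figure D4:**
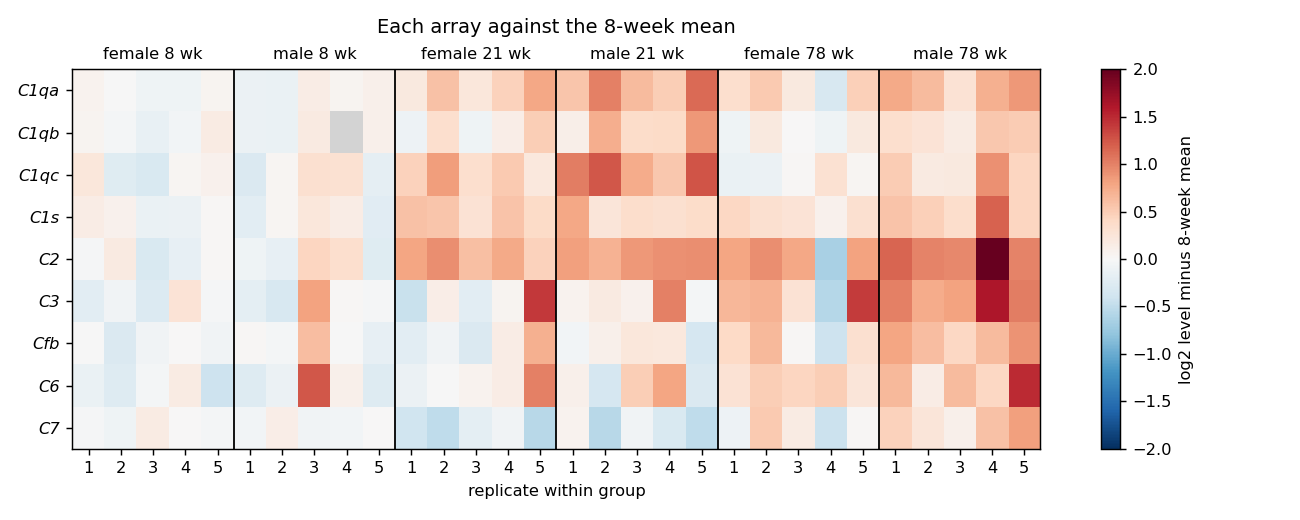
Level of each complement gene's lead probe on each of the 30 arrays minus that gene's mean over the 8-week arrays (colour, log2), with genes as lines and arrays in columns by age, sex and replicate, grey marking the C1qb spot without a value. C2 is above its 8-week mean on all 21-week arrays and on 9 of 10 of 78 weeks, and female replicate 4 at 78 weeks is below the 8-week mean for C1qa, C1qb, C2, C3, Cfb and C7.

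Markers of other cell types moved with some of these values. Of 14 macrophage markers 4 rose between 8 and 78 weeks, where 5.94% of all probes were higher: Cd68 (0.38), Cd163 (0.91), Mrc1 (0.59) and Aif1 (0.40). Their mean level over all 14 was 1.10 to 1.32 in females and 1.15 to 1.52 in males at 8 weeks, 1.23 to 1.45 and 1.53 to 1.80 at 21 weeks, and 0.74 to 1.50 and 1.47 to 1.92 at 78 weeks. Female replicate 4 at 78 weeks had the lowest of these and male replicate 4 at 78 weeks the highest. Of the 14 markers 11 were above background on all arrays, and of all such probes 20.1% passed in either direction between 8 and 78 weeks. Between these ages 2 of 9 T cell markers, 1 of 8 fat markers and 1 of 8 liver markers rose as well. In turn 2 of 9 fibroblast, 3 of 8 endothelial and 1 of 5 B and plasma cell markers fell. Between 8 and 21 weeks 7 of the 14 macrophage markers rose and 1 fell, near the 41.5% of all probes that were higher and the 56.8% that passed in either direction. In the same comparison 6 of 9 T cell markers and 5 of 8 fat markers rose and none of them fell. Of 8 heart muscle markers 6 rose (median 0.58) and 1 fell. Of 9 fibroblast markers 5 fell and 2 rose, and of 8 endothelial markers 5 fell and 2 rose. The part of these markers in the results was not tested.

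The arrays high in C3, Cfb and C6 were compared with markers of fat, mesothelium and liver. Fat markers had a mean level of 1.33 on male replicate 3 at 8 weeks and 1.68 on female replicate 5 at 21 weeks, the highest of their groups, against 0.05 to 1.02 on all other 8-week arrays. They were at 1.83 on male replicate 4 at 21 weeks, the highest of all 21-week arrays. On male replicate 4 at 78 weeks, which had the highest C3 of all arrays, the fat markers were at 0.29, the lowest of that group. Female replicate 3 at 21 weeks had fat markers at 1.53 and the lowest Cfb of its group (1.88). Male replicate 3 at 78 weeks had them at 2.09, the highest of all arrays, and the lowest Cfb of its group (2.57). Mesothelial markers were at 0.21 on male replicate 3 at 8 weeks and 0.12 on female replicate 5 at 21 weeks, the highest of their groups. They were at -1.41 on female replicate 4 at 78 weeks. Liver markers, of which 7 of 8 rose between 8 and 21 weeks, had their highest mean on male replicate 4 at 21 weeks (-0.10), the second highest C3 and C6 array of that age, and were at -1.48 on female replicate 2 and -1.80 on male replicate 5, where C3 was 0.22 and 0.05. The rise in liver markers starts from background, since 7 of the 8 in females and 6 of the 8 in males were above background on no 8-week array. Of all probes 41.5% were higher at 21 than at 8 weeks. The part of these tissues in the results was not tested.

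Over the 30 arrays the 9 members' levels correlated in blocks, given as a description since all points share the arrays, their batches and 3 ages. Pearson's r was 0.89 for C1qa and C1qb, 0.88 for C1s and C2, 0.85 for C3 and Cfb, and 0.73 for Cfb and C6. With the group means removed these were 0.83, 0.72, 0.77 and 0.63. Over the 36 pairs r ran from -0.27 (C1qc and C7) to 0.89, with a median of 0.50.

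The genes outside complement whose levels were most alike over the 30 arrays were named from the 14867 probes above background on all arrays. For C1qa these were Folr2_predicted (r = 0.96), Fcgr1 (0.94) and RGD1562525_predicted (0.92), Folr2 and Fcgr1 being receptors known on macrophages. For C1qb they were Ifitm1_predicted (0.91), Folr2_predicted (0.91) and RGD1562525_predicted (0.90). C1qc had Pepd (0.93), Gltp_predicted (0.93) and LOC316130 (0.92), so none of its 3 was shared with C1qa or C1qb. C1s had Grn (0.85), Pld3 (0.82) and Gaa (0.81), which encode lysosomal proteins. C2 had an unnamed transcript (0.89), Dusp15_predicted (0.88) and Ctss (0.87), a lysosomal protease. C3 had Myc (0.85), an unnamed transcript (0.83) and Icam1 (0.83), and Cfb had Fst (0.86), Icam1 (0.81) and Cpxm2_predicted (0.81), so the adhesion molecule Icam1 was among the 3 for both. C6 had Il17re (0.82), Fah (0.80) and Slc1a5 (0.77). C7 had the probe A_44_P902442 (0.85), the transcription factor Maf (0.85) and Spon1 (0.84).

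The table entries of C1qb, C1qc and C1s included a second one each, whose probes were listed in ascending coordinates although the genes' other probes were descending. Which strand such a probe reads was not tested, and its values were kept apart. A_44_P143478, at the C1qc locus, was above background on 30 arrays and rose by 0.58 ± 0.17 between 8 and 78 weeks (adjusted p = 0.0223). A_44_P467557, at the C1qb locus, was above background on only 10 of 30 arrays, and on 1 of the 10 of 8 weeks. Its difference between 78 and 8 weeks was 0.80 ± 0.20 (adjusted p = 0.00917), unlike the lead C1qb probe, which did not pass there. A_44_P498460, listed under C1s, was above background on 18 arrays and on none of the 5 males of 21 weeks. It was listed at chr4:160610120-160610179, apart from the lead C1s probe at chr4:160981661-160981720, and whether it reads C1s was not tested. The second C1qa probe, A_44_P487764, rose by 0.50 ± 0.11 between 8 and 78 weeks (adjusted p = 0.0018).

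Of 38 other complement genes with a probe, 21 were above background on at least 15 arrays, and the counts below include the dim ones. Between 8 and 78 weeks 5 of the 38 rose and 3 fell, with a median difference of 0.16, where 5.94% of all probes were higher. Between 8 and 21 weeks 18 of 38 rose and 1 fell (median 0.32), a share near the 41.5% of all probes that were higher. Those 18 held 4 of 5 central and terminal components, of which only 1 was above background on at least 15 arrays. Between 21 and 78 weeks 1 rose and 10 fell (median -0.19), where 14% of all probes were higher and 32.2% passed in either direction. Between 8 and 78 weeks the risers held 2 of 11 genes of the classical and lectin pathways, 1 of 2 of the alternative pathway, 2 of 7 soluble regulators, and none of 5 central and terminal components, 4 membrane regulators and 9 receptors.

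**Figure D5:**
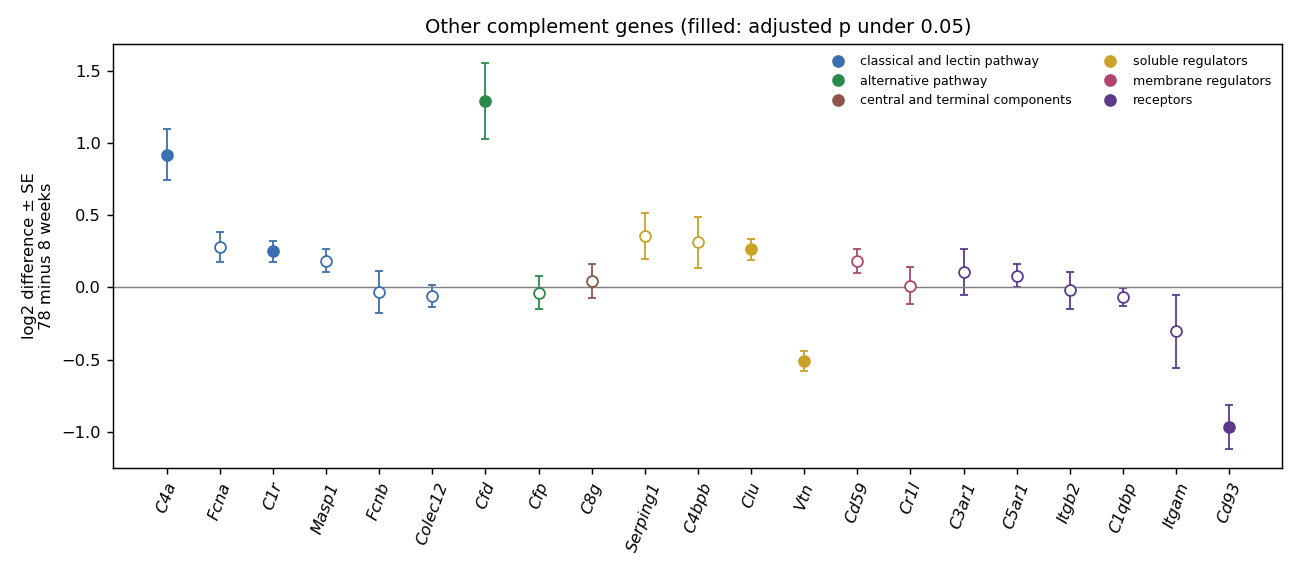
Log2 difference between 78 and 8 weeks (y axis, with standard errors, 10 against 10 arrays) of the 21 other complement genes above background on at least 15 arrays (x axis), coloured by role, filled points marking an adjusted p below 0.05. Cfd (1.29) and C4a (0.92) lie highest and Cd93 (-0.96) lowest.

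Cfd, factor D, which cleaves factor B and is made by fat cells, was 1.29 ± 0.26 higher at 78 than at 8 weeks (adjusted p = 0.00131) and 1.06 ± 0.26 higher at 21 than at 8 weeks. It is itself a fat marker and was at 5.24 on male replicate 3 at 8 weeks and 6.55 on female replicate 5 at 21 weeks. C4a, the partner of C2, was 0.92 ± 0.18 higher at 78 than at 8 weeks (adjusted p = 0.000667) and 0.94 ± 0.17 higher than at 21 weeks. The tables name its probe C4b, and near-identical C4 copies cannot be told apart by 1 probe. Vitronectin (Vtn), which holds back assembly of the terminal pore, fell by 0.51 ± 0.07 between 8 and 78 weeks (adjusted p = 4.88e-06). Cd93, a receptor of endothelial and myeloid cells once named for C1q binding, fell by 1.03 ± 0.15 between 8 and 21 weeks and by 0.96 ± 0.15 between 8 and 78 weeks (adjusted p = 1.14e-05 and 0.000104). Of 8 endothelial markers, 3 fell between 8 and 78 weeks as well, Cdh5 (-0.64), Tie1 (-0.71) and Emcn (-0.48), and their part in the Cd93 value was not tested. Of all probes 10.8% passed between these ages in either direction. Masp1, a protease of the lectin pathway, was 0.64 ± 0.08 higher at 21 than at 8 weeks (adjusted p = 3.05e-07). This value rests on its lead probe, since the other Masp1 probes were above background on at most 1 array. Which Masp1 transcripts the lead probe reads was not tested.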

How the data were processed

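The 30 Agilent one-colour arrays carried 1 rat's Cy3-labelled heart RNA each. The authors scanned and read them with Agilent Feature Extraction, and deposited intensity values per spot (processed, mean, median and background signals, with flags). For each age they also deposited a table of 75th-percentile-normalized intensities, not in log2, per gene name or probe. Per the deposited tables, the log2 of an entry is the mean of the log2 values of a name's probes, which matched the scans within 0.002 for 98.7% to 98.8% of entries. The tables were normalized by age and so served only as an alternative at each age.

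The log2 processed signal of each probe minus its array's 75th percentile over non-control spots was fitted with limma 3.58.1 in R 4.3.3, non-uniform spots left out and spots of a probe averaged. Ages were compared in one fit of 6 groups with slide as a random block (consensus correlation -0.04), sexes within each age, 5 against 5. Between 78 and 8 weeks 4439 probes passed with this block and 3628 without it, so the block did not make that test stricter. Benjamini-Hochberg adjustment ran over all probes, and an adjusted p under 0.05 passed. The replicates are separate rats. A gene's lead probe was the one above background on most arrays, ties by the higher mean, and symbols of a list that shared a probe counted as 1 gene. All 9 members were named, other complement genes where they passed at 0.5 or more and were above background on at least 15 arrays, and the 3 most correlated genes per member. A further complement gene is not reported here. The members and lists were chosen with earlier results of these data known. Same-numbered females and males deviated together at 78 weeks (r = 0.14 to 0.30 for the 5 pairs) and not throughout at 8 and 21 weeks, so the block by replicate number is given as an alternative. Such arrays also shared a slide at every age, and the labels state no pairing. Array number and signal over background limit the precision. The fits were tested on simulated data, with a known log2 difference put into 100 probes at each size. Of those changed by 0.5, 28 passed between 78 and 8 weeks and 0 between the sexes at 78 weeks. Of those changed by 1, 74 and 27 passed. Alternatives were other scalings, background corrections and filters, left-out arrays, and scan day or slide as a block.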

Additional observations from a re-analysis of the deposited data

Results flagged for a closer look

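A gap test (Dixon's) was run on the lead probes within each group of 4 or 5 arrays. It singled out 8 values, on 6 arrays, over 54 sets of 1 gene in 1 group, and chance alone singles out about 1 set in 20. C1s was at 4.85 on male replicate 1 at 21 weeks and at 5.25 on male replicate 4 at 78 weeks, both above the rest of their group. C2 was at 0.84 on female replicate 4 at 78 weeks, below its group, and at 3.63 on male replicate 4 at 78 weeks, above it. C3 was at 1.09 on male replicate 4 at 21 weeks, above its group. Cfb was at 2.79 and C6 at 1.56 on male replicate 3 at 8 weeks, and C6 was at 1.33 on female replicate 5 at 21 weeks, each above its group.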

How the results depend on the processing

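With normexp 0 members passed in each comparison of ages, and 337 probes passed between 78 and 8 weeks, 832 between 21 and 8 and 285 between 78 and 21. Normexp turned C1qa to -0.10, C1qb to -0.34, C1qc to -0.056 and C1s to -0.060 between 78 and 8 weeks, C1qb to -0.20, C1s to -0.023, Cfb to -0.24 and C7 to 0.019 between 21 and 8 weeks, and the members' median between the sexes at 21 weeks to 0.25. Cfb between 21 and 8 weeks was also -0.039 with quantile normalization, -0.078 with the percentile of probes above background on all arrays, -0.084 with raw median signals, and -0.062 in males. Between 78 and 21 weeks C1qa was 0.056 with quantile normalization, C1qb was 0.14, 0.024 and 0.031 and C1s 0.20, 0.12 and 0.050 with the first 3 of these scalings, C1s 0.19 in males, 0.021 without the 2 arrays whose Y-linked genes contradict the label, 0.053 with scan day as a block and 0.054 within one scan day, and C2 -0.18 in females. On the shared slide C1qb was -0.0026 and the second C1qc probe A_44_P412290 was -0.018. The causes of these reversals were not tested.

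Between 78 and 8 weeks 0 members passed in females and 3 in males, and 1011 and 1618 probes, 8240 with raw signals and 10603 within one scan day. Between 21 and 8 weeks 2 members passed in females, with 2999 probes, and 12546 probes passed with quantile normalization and 13035 with the filter on dim probes. Between 78 and 21 weeks 0 members passed in females (3706 probes), 1 with scan day as a block and 0 within one scan day (2055 probes). Between the sexes the filter on dim probes gave 41 probes at 8 weeks and 28 at 21 weeks, the replicate block 5 and 4, and slide as a block 9 and 6. At 21 weeks normexp gave 1, raw signals 58 and the methods' t-test 8 after adjustment. At 78 weeks, where same-numbered females and males deviated together, the replicate block changed no member's call. The methods' t-test at that age passed 0 probes after adjustment (1869 before it). In limma 10 probes passed there without the 2 arrays whose Y-linked genes contradict the label. Scan day, the shared slide and the joint removal of 2 arrays were alternatives chosen after seeing the data. With each array left out in turn, 4 to 6 members passed between 78 and 8 weeks (3519 to 5349 probes), 6 between 21 and 8 (20647 to 24945) and 3 to 4 between 78 and 21 (12090 to 15965), and between the sexes 8 to 21 probes passed at 8 weeks, 7 to 13 at 21 and 0 to 1 at 78. In those fits Cfb between 21 and 8 weeks ran from -0.036 to 0.11 and C1s between 78 and 21 weeks from -0.079 to 0.040.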
